A study of Mus musculus with 4 samples.

Results

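The 7 genes described here, Nras, Hras, Araf, Braf, Map2k1, Map2k2 and Mapk3, encode proteins of the RAS, RAF, MEK and ERK signalling cascade, and were chosen by name out of 39179 genes measured in mouse liver tumors. All 7 were found under a single identifier each, and all 7 passed the filter on low values that left 13149 genes (1 CPM or more in no fewer than 2 libraries, where CPM is the count of a gene scaled to a library total of 1000000). The tumors of all groups were of genotype Myc/NrasG12V in wild-type C57BL/6 mice: transposons encoding Myc and the oncogenic Nras were delivered into hepatocytes by hydrodynamic injection. The promoter on the transposons, the species of the Nras sequence they carry, the dose, and the sex and age of the mice are not given here by any source used. The carrier group (2 libraries) received carrier and the sorafenib group (2 libraries) received sorafenib, both for 3 weeks with a dose every second day. The labels do not say that the libraries of a group came from separate mice, so the p-values rest on the spread between these libraries, part of which may be technical.

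RAS proteins are membrane-bound switches that are active when they hold GTP. Active RAS recruits RAF kinases to the membrane, RAF phosphorylates the MEK kinases, and MEK phosphorylates the ERK kinases, which act on transcription factors, ribosomal kinases and many other proteins. In hepatocytes the cascade relays signals of growth factor receptors, and sorafenib, an oral inhibitor of several kinases that is used against liver cancer, binds RAF kinases as well as receptors of VEGF and PDGF. Messenger RNA levels do not report the activity of these kinases.

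Total depth was 4067427 to 5932939 reads per library. The libraries labelled as liver tumors expressed the hepatocyte markers, with Alb between 71696 and 107514 CPM. Sorafenib replicate 2 stood apart in markers of the fetal liver and of liver tumors (Afp, H19, Igf2, Gpc3, Dlk1 and Igf2bp3): summed, they reached 38176 and 33067 CPM under carrier and 15202 CPM in sorafenib replicate 1, but 84.4 CPM in sorafenib replicate 2, where Igf2bp3 was at 0. In bulk tissue, fewer cells of a type and less RNA per cell cannot be told apart. Over the 13149 tested genes, 67.8% had a negative log2 fold change (sorafenib minus carrier), with a median of -0.26, and single genes are read beside that median.

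The RAS genes are close in sequence. Over coding sequences of 567 bases each, Nras and Hras shared 76.1% of aligned bases, and the longest identical run was 23 bases, shorter than the 75-cycle reads. None of the 5719 distinct 75-base words in the annotated Nras transcripts occurred exactly in a transcript of another gene, and the same held for the 4082 words of Hras. The gene counts do not show which Nras reads came from the injected sequence and which from the mouse gene.

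Nras, whose mutant form was injected (ENSMUSG00000027852, chromosome 3, 103058285 to 103067914 on GRCm38), had the lowest fold change of the 7 genes. Carrier replicates 1 and 2 gave 88.3 and 83.4 CPM, from 524 and 442 reads, and sorafenib replicates 1 and 2 gave 47.0 and 22.1 CPM, from 191 and 116 reads. Both sorafenib libraries lay below both carrier libraries, and sorafenib replicate 2 lay below sorafenib replicate 1. The log2 fold change was -1.38 (SE 0.369, 95% interval -2.28 to -0.49), and it did not pass the threshold after adjustment over all tested genes (limma adjusted p = 0.24, unadjusted p = 0.00909). The linear means were 34.5 ± 17.6 CPM against 85.9 ± 3.49 CPM (SD, n = 2 each), which is 59.8% lower. Among all tested genes, 4.89% had a fold change as low or lower. Without sorafenib replicate 1 Nras was called (limma adjusted p = 7.7e-06, log2 fold change -1.91), but so were 39.2% of all tested genes, with 29.8% called as lower. Without sorafenib replicate 2 it was not called (limma adjusted p = 0.0508, log2 fold change -0.86), where 3.03% of tested genes were called and 1.27% as lower.

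Hras (ENSMUSG00000025499, chromosome 7, 141189105 to 141194005), the RAS paralogue that was first known from a rat sarcoma virus, had 58.1 and 45.7 CPM under carrier and 39.6 and 32.6 CPM under sorafenib. The groups did not overlap, but the counting intervals of the lower carrier library and the higher sorafenib library overlapped (40.1 to 51.8 CPM and 33.7 to 46.2 CPM, exact Poisson 95%, counting error only). The log2 fold change was -0.51 (SE 0.254, limma adjusted p = 0.305). Relative to the median of all genes it was -0.25.

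**Figure D1:**
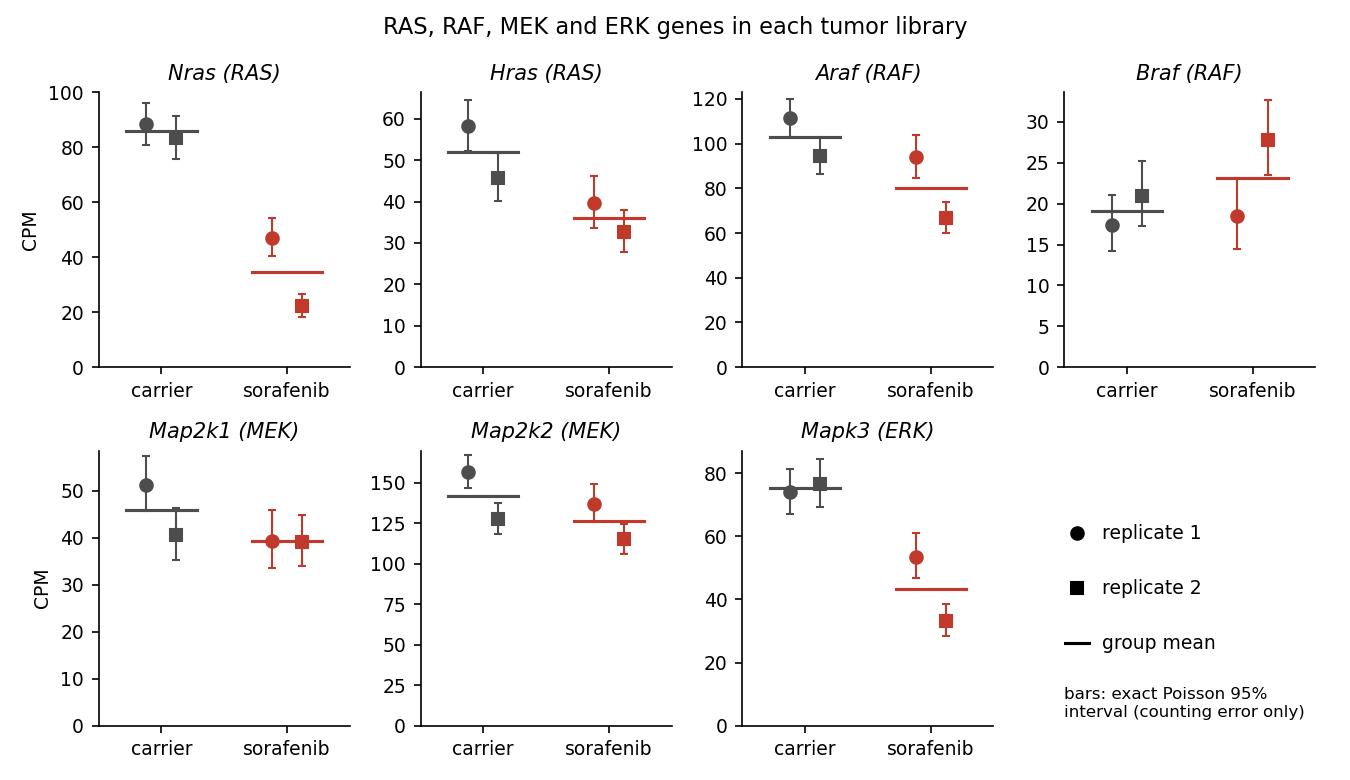
Level of each gene in CPM in the 2 carrier libraries (grey) and the 2 sorafenib libraries (red), with circles for replicate 1, squares for replicate 2, horizontal lines for the group means and bars for exact Poisson 95% intervals. Nras and Mapk3 show the widest gaps between groups, and Braf is the single gene whose highest value is in a sorafenib library.

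The balance of the RAS genes within a library does not depend on how libraries are scaled. Nras held 60.3% (57.0 to 63.5, Wilson 95% interval) and 64.6% (61.0 to 68.1) of the reads of Nras and Hras together in carrier replicates 1 and 2. In the sorafenib libraries it held 54.3% (49.0 to 59.4) and 40.4% (34.9 to 46.2). Thus Nras gave more reads than Hras in both carrier libraries and fewer in sorafenib replicate 2, while the interval of sorafenib replicate 1 included equal shares. Equal reads are not equal levels, because the annotated exons span 5.33 kb in Nras and 3.73 kb in Hras. Per kb of exon, Nras lay below Hras in sorafenib replicates 1 (8.81 against 10.6) and 2 (4.15 against 8.73). Per kb of principal transcript it was already lower in carrier replicate 1 (19.8 against 20.6). The log2 ratio of Nras to Hras was 0.74 ± 0.19 in carrier and -0.16 ± 0.57 in sorafenib libraries (SD, n = 2 each). All values of one group lay above those of the other, yet with 2 libraries a group the exact two-sided permutation test cannot go below p = 0.333, the value it gave here (adjusted over the 3 paralogue ratios computed, p = 1). Summed over both genes, RAS transcripts were at 146 and 129 CPM in carrier and at 86.5 and 54.7 CPM in sorafenib libraries.

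The RAF kinases are the step that sorafenib binds. Araf (ENSMUSG00000001127, chromosome X, 20797814 to 20860519), a RAF family kinase with weak catalytic activity, had 111 and 94.5 CPM under carrier and 93.9 and 66.7 CPM under sorafenib. Carrier replicate 2 and sorafenib replicate 1 differed by less than their counting error, and the counting interval of sorafenib replicate 2 (59.9 to 74.1 CPM) lay below those of the other 3 libraries. The log2 fold change was -0.37 (SE 0.252, limma adjusted p = 0.417), or -0.11 relative to the median of all genes. Without sorafenib replicate 1 it was called at -0.61 (limma adjusted p = 0.0392), as were 39.2% of tested genes.

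Braf (ENSMUSG00000002413, chromosome 6, 39603237 to 39725463), the RAF kinase with the strongest basal activity, was the one gene of the 7 with a positive fold change. Its level was 17.4 and 20.9 CPM under carrier and 18.4 and 27.8 CPM under sorafenib, from 75 to 146 reads per library. The groups overlapped, because sorafenib replicate 1 lay between the carrier libraries. The log2 fold change was 0.24 (SE 0.318, 95% interval -0.53 to 1.01, limma adjusted p = 0.677), and it was -0.05 without sorafenib replicate 2. Exons of Braf overlap those of Ndufb2 on the opposite strand by 146 bases, and exons of Araf overlap those of Syn1 by 9 bases. No source used here says whether reads were counted by strand. Some 75-base words of Araf (0.70%) and Braf (0.51%) also occurred in transcripts of other genes, with both strands searched. Of the reads of Araf and Braf together, Araf held 86.5% (83.9 to 88.7, Wilson 95%), 81.9% (78.6 to 84.7), 83.6% (79.9 to 86.7) and 70.6% (66.4 to 74.4) in carrier replicates 1 and 2 and sorafenib replicates 1 and 2. The Araf share was lowest in sorafenib replicate 2, and the log2 ratio of Braf to Araf did not separate the groups (difference 0.62, exact two-sided permutation p = 0.667; 0.08 without sorafenib replicate 2).

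The MEK kinases, which have dual specificity for threonine and tyrosine and whose known substrates are the ERK kinases, had fold changes near the median of all genes. Map2k2, encoding MEK2 (ENSMUSG00000035027, chromosome 10, 81105915 to 81133975), had 157 and 128 CPM under carrier and 137 and 115 CPM under sorafenib, with overlapping groups. Map2k1, encoding MEK1 (ENSMUSG00000004936, chromosome 9, 64185770 to 64253631), had 51.2 and 40.6 CPM under carrier and 39.3 and 39.1 CPM under sorafenib. Its sorafenib values lay just below the lower carrier value, whose counting interval (35.3 to 46.4 CPM) included them. The log2 fold changes were -0.17 for Map2k2 (95% interval -0.71 to 0.38) and -0.21 for Map2k1 (-0.80 to 0.37), with limma adjusted p of 0.676 and 0.62. Relative to the median of all genes they were 0.09 and 0.05, and with TMM, RLE or upper-quartile scaling factors both turned slightly positive (0.02 to 0.11). These intervals do not show that the MEK genes were unaffected.

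The ratio of the MEK genes was the steadiest of the 3 paralogue ratios. Map2k2 held 75.3% (72.9 to 77.7, Wilson 95%), 75.9% (73.0 to 78.6), 77.7% (74.5 to 80.6) and 74.7% (71.6 to 77.6) of the reads of both genes in the 4 libraries in the same order. The log2 ratio of Map2k1 to Map2k2 was -1.63 ± 0.03 in carrier and -1.68 ± 0.17 in sorafenib libraries (SD, n = 2 each; exact two-sided permutation p = 1). The coding sequences of this pair are 78.4% identical with a longest identical run of 56 bases, which is also shorter than a read.

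**Figure D2:**
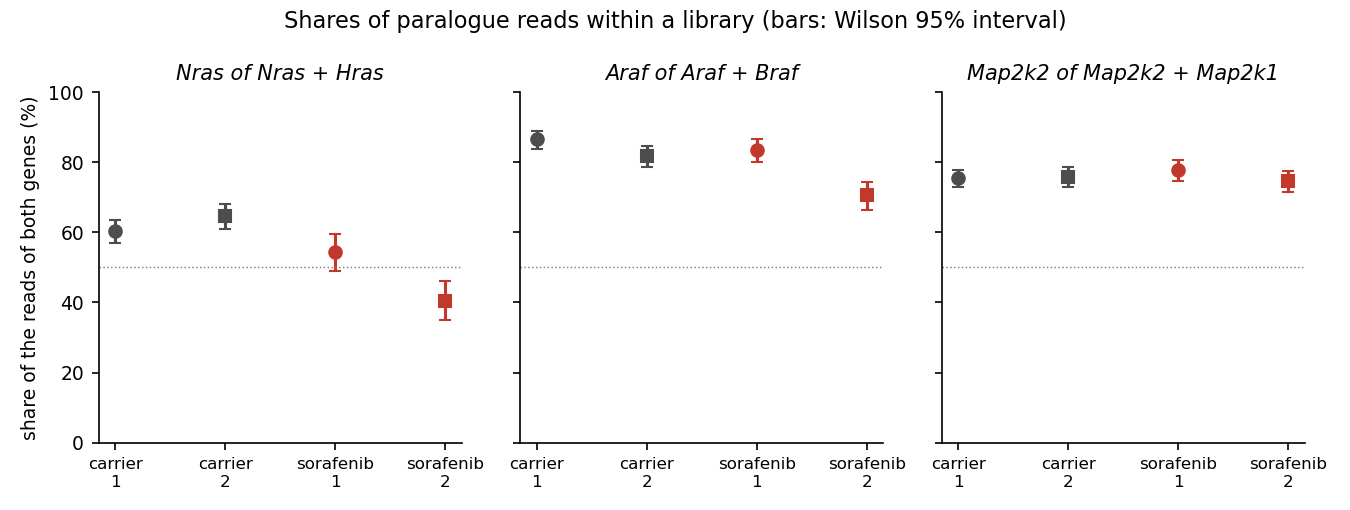
Share of reads (%) that the first-named gene of each paralogue pair held among the reads of both genes, for each library, with Wilson 95% intervals. The dotted line marks equal shares of reads, not corrected for gene length. The Nras share was 60.3% and 64.6% under carrier and 40.4% in sorafenib replicate 2, whereas the Map2k2 share lay between 74.7% and 77.7% in all 4 libraries.

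Mapk3, encoding ERK1 (ENSMUSG00000063065, chromosome 7, 126759601 to 126765819), is the last kinase of the cascade and was second to Nras in the size of its fold change. Its level was 74.0 and 76.6 CPM under carrier and 53.6 and 33.2 CPM under sorafenib, from 439, 406, 218 and 174 reads. The carrier libraries were close to each other, and both sorafenib libraries lay below them. The log2 fold change was -0.82 (SE 0.286, 95% interval -1.52 to -0.12), short of the threshold (limma adjusted p = 0.251, unadjusted p = 0.0277). In linear CPM the sorafenib mean was 43.4 ± 14.4 against 75.3 ± 1.84 (SD, n = 2 each), which is 42.4% lower, and 17.9% of tested genes had a fold change as low or lower. Without sorafenib replicate 1 it was called at -1.16 (limma adjusted p = 0.000841), in a fit that called 39.2% of all genes and 29.8% as lower. Without sorafenib replicate 2 it was at -0.48 and not called (limma adjusted p = 0.294). In both fits the spread comes from the carrier pair alone, and the lone sorafenib library is assumed to vary like it, here as for the other genes.

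Of the 7 genes, 0 passed the limma test adjusted over all genes, where 0.0% of the 13149 genes did, and edgeR and DESeq2 on recovered reads called 0 of the 7 as well (0.0% of all genes and 4.29% of those with an adjusted p). At an unadjusted limma p below 0.05, 2 of the 7 were lower, Nras and Mapk3; over all tested genes that share was 12.9% lower and 6.36% higher. In 5 of 7 genes (Nras, Hras, Araf, Map2k1 and Mapk3) both sorafenib libraries lay below both carrier libraries, where 41.3% of all tested genes did. The 7 genes had a median log2 fold change of -0.37 beside -0.26 for all genes, and 4 of the 7 lay below the median of all genes. With TMM factors, 4 of the 7 had a negative fold change and their median was -0.14 beside -0.055 for all genes.

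The sorafenib libraries differed in degree. Against the carrier mean, the median of the 7 genes was -0.21 in replicate 1 and -0.61 in replicate 2, and the median of all genes was -0.10 and -0.40. Nras was at 54.7% and 25.8% of the carrier mean in replicates 1 and 2, and Mapk3 at 71.2% and 44.0%. Hras was at 76.3% and 62.8%. Lower values in replicate 2 than in replicate 1, on the log2 scale, were seen in 6 of 7 genes, all but Braf, and in 68.1% of all tested genes. The fetal liver and tumor markers were also lower in replicate 2, as given above, and so were macrophage markers (summed level of 7 genes 240 and 291 CPM in carrier, 134 and 64.2 CPM in sorafenib libraries, all 7 lower in both) and endothelial markers (7 genes, 177 and 210 against 142 and 57.0 CPM, 5 lower in both). Over all tested genes, 41.3% were lower in both sorafenib libraries. The part of these markers in the values of the cascade genes was not tested.

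**Figure D3:**
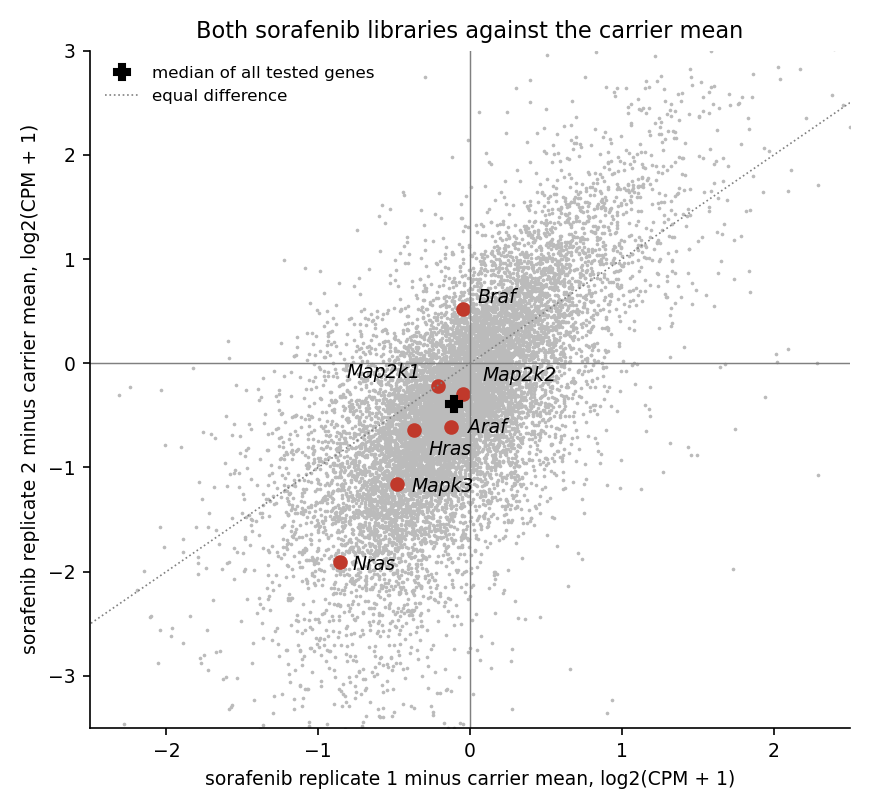
Difference from the carrier mean on log2(CPM + 1) in sorafenib replicate 1 (x axis) and sorafenib replicate 2 (y axis) for tested genes (grey; 145 of 13149 lie outside the axes) and the 7 cascade genes (red). Nras lies farthest toward the lower left of the 7 at -0.86 and -1.91, the MEK genes lie next to the median of all genes, and Braf lies above 0 in replicate 2.

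The remaining marker lists bear on the makeup of the samples. Summed levels of the 8 hepatocyte markers were 133568 and 147075 CPM in carrier against 121309 and 106975 CPM in sorafenib libraries, with 4 of 8 lower and 2 of 8 higher in both. Over all tested genes, 41.3% were lower and 17.5% higher in both. Stellate cell and fibroblast markers (6 genes) were at 322 and 467 against 214 and 181 CPM, and lymphocyte markers (6 genes) at 23.8 and 21.1 against 22.1 and 13.5 CPM. Neutrophil markers (5 genes, with Ly6g at 0 in all libraries) were at 25.1 and 26.8 against 20.7 and 5.53 CPM, biliary markers (5 genes, mostly Spp1) at 472 and 672 against 521 and 106 CPM, and erythroid markers (4 genes) at 268 and 215 against 174 and 38.5 CPM. The listed blood and stroma genes held few reads beside the hepatocyte markers, whose sums are mostly Alb. Sums of such short lists do not measure how much RNA came from each cell type.

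**Figure D4:**
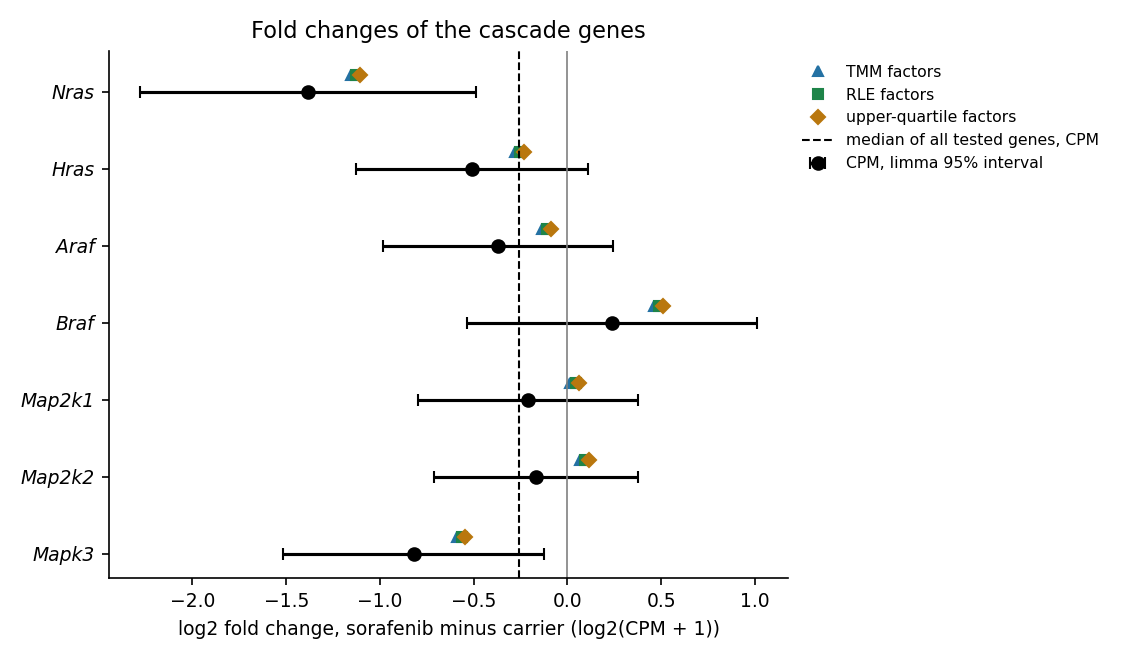
Log2 fold changes, sorafenib minus carrier, of the 7 genes on log2(CPM + 1) with limma 95% intervals (black) and with 3 sets of scaling factors (colored); the dashed line is the median of all tested genes at -0.26. Nras and Mapk3 stay at -1.11 and -0.54 with upper-quartile factors, and the MEK genes change sign.

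Levels of different genes were compared per kilobase of annotated exon. In the carrier libraries Mapk3 was at 32.8 and 33.9 CPM per kb and Map2k2 at 27.7 and 22.6 CPM per kb. Araf, Nras, Hras and Map2k1 followed at means of 15.7 ± 1.81, 16.1 ± 0.655, 13.9 ± 2.37 and 13.5 ± 2.23 CPM per kb (SD, n = 2 each). These ranges of mean and SD overlap one another. The single carrier values of Nras (16.57 and 15.64) lay above those of Hras (15.58 and 12.23) and Map2k1 (15.11 and 11.96). Braf was lowest in all 4 libraries, between 1.25 and 2.01 CPM per kb. In the sorafenib libraries Map2k2 was first (24.2 and 20.4 CPM per kb) with Mapk3 next (23.7 and 14.7), and Nras was last but for Braf (8.81 and 4.15). The order of the genes depends on the length used. Divided by the length of the principal transcript, Map2k2 ranked first in all 4 libraries, at 47.9 to 65.1 CPM per kb. Araf then lay above Nras, Hras and Map2k1 in all 4 libraries. It was at 47.2 and 40.1 CPM per kb in carrier and 39.8 and 28.3 in sorafenib libraries. Mapk3 was at 41.1 and 42.6 in carrier and 29.8 and 18.4 in sorafenib libraries, below Araf except in carrier replicate 2.

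The profile of each gene over the 4 libraries was matched to 6850 other genes with a mean log2(CPM + 1) of at least 4, by the Euclidean distance of centred log2 values. This measure rests on 4 libraries, and many genes share such a profile. Nearest to Nras was Tubb2a, a beta-tubulin (112 and 106 CPM in carrier, 59.0 and 27.1 CPM in sorafenib libraries, distance 0.0529), followed by Myh9, a nonmuscle myosin heavy chain, and Arfgap3. Nearest to Mapk3 were Dhx15, an RNA helicase (67.4 and 70.4 against 50.4 and 30.9 CPM, distance 0.0352), Fam98a and the translation factor Eif4b. Hras was nearest to Mrto4, Xab2 and Bms1, Araf to Rpf1, Eri3 and Cdk2, and Braf to Zfp385b, Cdc14b and Xpo7. Map2k1 was nearest to Cxxc1, Aurkaip1 and Rab1b, and Map2k2 to Dctn5, Mipep and Trpc4ap. Among the 7 genes themselves the MEK genes were closest to each other (distance 0.177) and Nras and Braf were farthest apart (2.00).

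Promoter windows of 300 bases (250 before to 50 after the start, from RefSeq on GRCm38.p6) were matched for 6 of the 7 genes, all but Mapk3. They were searched on both strands for CACGTG, the E-box that MYC binds with MAX, for the ETS core CCGGAAG, for the GC box GGGCGG and for TATAAA. The E-box was found in 1 of 6 windows, that of Nras, starting at position -15, and in 7.15% of all 32851 windows. The GC box was found in 5 of 6 windows and in 35.7% of all windows, and the ETS core and TATAAA were found in 0 of 6, beside 8.86% and 13.6% of all. The windows of the RAS genes are shown because, of the 3 paralogue ratios, theirs had the largest difference between groups on the log2 scale (-0.89). Its exact two-sided permutation p was 0.333, the smallest that 2 libraries a group allow. E-box and GC boxes are in capitals, for Nras at chr3:103058035-103058334 (plus strand) and for Hras at chr7:141193955-141194254 (minus strand).
Nras: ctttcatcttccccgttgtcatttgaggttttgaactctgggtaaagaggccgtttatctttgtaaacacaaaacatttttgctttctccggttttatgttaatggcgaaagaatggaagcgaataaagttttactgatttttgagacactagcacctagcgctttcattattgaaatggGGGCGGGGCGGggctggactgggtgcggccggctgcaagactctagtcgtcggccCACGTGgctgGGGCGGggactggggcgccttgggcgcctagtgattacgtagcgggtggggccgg
Hras: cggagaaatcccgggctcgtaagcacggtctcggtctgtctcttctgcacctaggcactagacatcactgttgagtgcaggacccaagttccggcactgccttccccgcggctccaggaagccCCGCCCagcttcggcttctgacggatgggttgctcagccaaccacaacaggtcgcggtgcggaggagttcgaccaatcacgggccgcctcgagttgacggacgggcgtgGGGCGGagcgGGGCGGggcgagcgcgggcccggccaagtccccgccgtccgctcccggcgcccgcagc
Each window holds 3 GC boxes, of which 2 in Nras share a base. A match describes letters only, and the reads assigned to Nras need not come from this promoter.

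The neighbours of these genes in the pathway were followed in 9 lists with 94 tested genes of 112 listed. None (0 genes) passed the limma test adjusted over all genes (adjusted p 0.24 to 0.985). At an unadjusted limma p below 0.05, 16 were lower and 1 higher, beside 12.9% and 6.36% of all tested genes. In the whole table edgeR called 0 genes and DESeq2 called 499, and the DESeq2 calls within these lists were not counted. Both sorafenib libraries lay below both carrier libraries for 46 of the 94 genes (48.9%, beside 41.3% of all tested genes) and above for 10 (10.6%, beside 17.5%). The median over the lists was -0.26, the same as that of all genes to 2 decimals.

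Upstream of RAS, exchange factors load GTP and GTPase-activating proteins speed its hydrolysis. Counts of genes lower or higher in both sorafenib libraries are read beside 41.3% and 17.5% of all tested genes. Of the exchange factors 2 of 6 were lower in both sorafenib libraries and 1 higher (median -0.47): Rasgrp3, which responds to diacylglycerol, was at 6.74 and 8.30 against 4.43 and 1.72 CPM, Rasgrp2, which acts mainly on RAP, at 134 and 127 against 113 and 22.7 CPM, and Sos1, which the adaptor Grb2 brings to receptors, at 30.8 and 30.6 against 36.1 and 67.1 CPM. Of the GTPase-activating proteins 6 of 9 were lower and 1 higher (median -0.75), with Rasa3 at 22.9 and 24.0 against 14.5 and 8.196 CPM, Rasa1 at 25.3 and 31.9 against 17.9 and 16.01 CPM, and Rasal3, known from lymphocytes, at 2.53 and 1.13 against 3.44 and 3.05 CPM. Of the adaptors 4 of 10 were lower and 0 higher (median -0.27), with Shc1 at 65.2 and 65.3 against 45.0 and 39.3 CPM and Ptpn11, the phosphatase SHP2, at 58.3 and 60.7 against 44.0 and 35.3 CPM.

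Scaffolds and modulators hold RAF, MEK and ERK together or tune them, and 7 of 13 were lower and 1 higher in both sorafenib libraries (median -0.33). The counts in this paragraph are read beside 41.3% lower and 17.5% higher among all tested genes. Iqgap1, a scaffold that binds MEK and ERK, was at 44.2 and 43.0 against 17.5 and 6.67 CPM (log2 fold change -1.91, SE 0.445, limma adjusted p = 0.24). Ppp1ca, a catalytic subunit of protein phosphatase 1, was at 102 and 91.9 against 65.9 and 41.6 CPM, and Lamtor2, part of an endosomal scaffold, at 57.3 and 59.8 against 62.2 and 68.8 CPM. Enzymes that attach and trim the lipid anchor of RAS or move RAS between membranes were lower in 6 of 12 cases and higher in 1 (median -0.28). Rce1, the protease that trims the RAS tail, was at 17.2 and 20.6 against 11.6 and 7.62 CPM, and Fntb, the farnesyltransferase beta subunit, at 11.6 and 6.79 against 5.16 and 3.05 CPM. Lypla2, a thioesterase that removes palmitate, was at 87.3 and 73.4 against 88.3 and 98.0 CPM.

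RAS-related GTPases had a median of -0.11 (0.12 with TMM factors), with 5 of 12 lower and 2 higher in both sorafenib libraries. Among all tested genes 41.3% were lower and 17.5% higher, also for the effectors below. Ralb was at 28.1 and 29.1 against 18.4 and 5.34 CPM and Rap2b at 5.39 and 4.15 against 2.95 and 2.29 CPM, while Rap1a was at 24.1 and 24.5 against 28.3 and 35.3 CPM and Rap2a at 6.57 and 9.998 against 10.6 and 15.1 CPM. Effectors other than RAF were lower in 6 of 13 cases and higher in 2 (median -0.14, or 0.083 with TMM factors). The Ral exchange factors Rgl1 and Ralgds were at 38.8 and 46.0 against 23.1 and 3.43 CPM and at 5.73 and 5.85 against 3.20 and 0.762 CPM. Plce1, a phospholipase C, was at 6.07 and 11.1 against 12.0 and 16.2 CPM and Pik3cb, a catalytic subunit of PI3 kinase, at 7.58 and 10.9 against 11.1 and 15.2 CPM.

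Kinases that ERK phosphorylates were lower in both sorafenib libraries in 4 of 5 cases and higher in 1 (median -0.66). This count and that of the other modules are read beside 41.3% lower and 17.5% higher among all tested genes. Rps6ka3, the ribosomal S6 kinase RSK2, was at 28.1 and 36.0 against 16.5 and 12.4 CPM (log2 fold change -1.10, SE 0.3, limma adjusted p = 0.24). Mknk1, which phosphorylates the cap-binding protein eIF4E, was at 43.3 and 35.7 against 22.1 and 19.3 CPM (log2 fold change -0.90, SE 0.26, limma adjusted p = 0.24), whereas its paralogue Mknk2 was at 182 and 177 against 191 and 219 CPM. The members of other MAP kinase modules were lower in 6 of 14 cases and higher in 1 (median -0.11, or 0.087 with TMM factors). Mapk7, the kinase ERK5, was at 8.76 and 10.9 against 7.62 and 3.24 CPM and Mapk9, the kinase JNK2, at 66.1 and 65.3 against 55.6 and 42.1 CPM. Mapk15, an atypical MAP kinase, was at 4.21 and 7.17 against 16.2 and 16.6 CPM and had the highest fold change of all 94 genes (1.42, SE 0.369, limma adjusted p = 0.24).

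**Figure D5:**
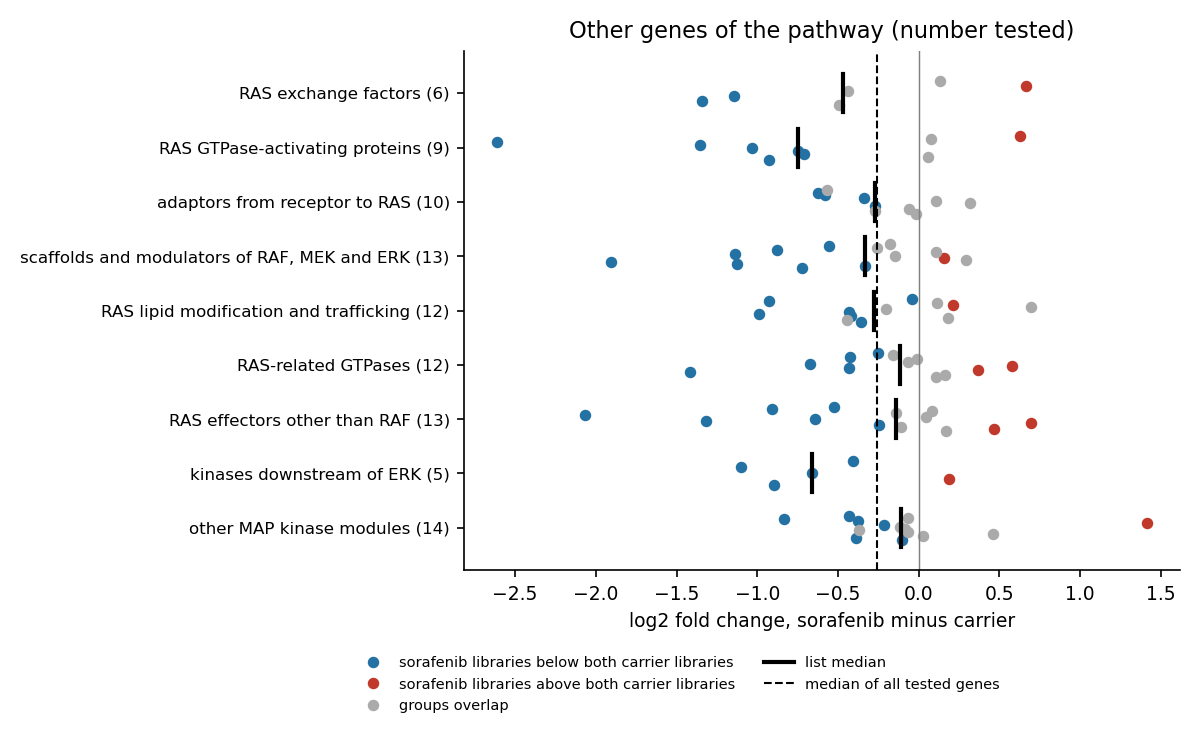
Log2 fold changes, sorafenib minus carrier, of the 94 tested genes in 9 pathway lists, colored by whether both sorafenib libraries lay below or above both carrier libraries; short bars are list medians and the dashed line is the median of all tested genes. GTPase-activating proteins (-0.75) and kinases downstream of ERK (-0.66) have the lowest medians.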

How the data were processed

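The authors deposited 1 table per library in CPM, and each column sums to 1000000. GRCm38, edgeR 3.22.5, Subread 1.6.3 and STAR 2.6.1c are listed, without roles, per the submitters' processing notes; poly(A) RNA from 100 ng was read for 75 cycles, per the labels. Every deposited value above 0 (100%) was a whole multiple of a step, within 0.01, so whole reads were recovered (4067427 to 5932939 per library). A count of 0 allows up to 0.506 to 0.738 CPM (3 reads), and intervals cover counting error only.

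limma 3.58.1 (R 4.3.3) tested log2(CPM + 1) with empirical Bayes moderation and a variance trend for the 13149 genes that reached 1 CPM in 2 or more libraries, with Benjamini-Hochberg adjustment at 0.05. Fold changes are on that scale, which understates low genes. edgeR 4.0.16 (0 genes called, 2271 at unadjusted p below 0.05; limma 0 and 2529) and DESeq2 1.42.0 (499 called, 1530 without an adjusted p) were run on recovered reads; functions were tested on simulated reads. Both pairs of replicates lay apart beyond counting noise (ratio of chi-square to its degrees of freedom 9.31 and 41.3).

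The 7 genes, the 9 pathway lists (111 of 112 symbols found) and 9 marker lists were chosen with earlier results of these data known. Named pathway genes are the 2 with the smallest p per direction whose groups do not overlap. Positions and exon lengths came from GENCODE M21. A coding stretch of the RAS genes is not reported here.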

Additional observations from a re-analysis of the deposited data

How the results depend on the processing

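The number of genes called by limma stayed 0 with other pseudocounts, filters and scaling factors, without the trend, with edgeR and with the replicate block, while DESeq2 called 499 genes (449 higher, 50 lower), for which the cause was not tested. Leaving out a library gave 0 to 5149, with 5149 without sorafenib replicate 1, 398 without sorafenib replicate 2 and 0 without either carrier library. The labels number the replicates in both groups alike, but with 2 pairs the numbers alone do not pair the libraries (correlation of deviations 0.15); with the replicate block the fold changes do not change and Nras has a limma adjusted p of 0.112.

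Nras stayed between -1.91 and -0.86 over all alternatives and Mapk3 between -1.16 and -0.48. Without 1 library, Nras ran from -1.91 to -0.86, Hras from -0.68 to -0.34, Araf from -0.61 to -0.13, Braf from -0.05 to 0.52, Map2k1 from -0.38 to -0.05, Map2k2 from -0.31 to -0.02 and Mapk3 from -1.16 to -0.48. Braf reversed to -0.046 without sorafenib replicate 2. Map2k1 and Map2k2 reversed with TMM (0.016 and 0.064), RLE (0.044 and 0.093) and upper-quartile factors (0.063 and 0.11), with edgeR (0.034 and 0.079) and with DESeq2 (0.054 and 0.097); these methods scale libraries, and they moved the median of all genes from -0.26 to between -0.055 and -0.012 with the 3 sets of factors. The log2 ratio of Nras to Hras differed between groups by -1.30 to -0.49 without 1 library, that of Braf to Araf by 0.08 to 1.17 and that of Map2k1 to Map2k2 by -0.17 to 0.07.

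All list medians rose with TMM and upper-quartile factors. They moved to -0.31 and -0.28 (exchange factors), -0.56 and -0.52 (GTPase-activating proteins, from -0.75) and -0.067 and -0.024 (adaptors). Scaffolds moved to -0.11 and -0.060, lipid modification to -0.053 and -0.0068, and RAS-related GTPases to 0.12 and 0.16. Effectors other than RAF moved from -0.14 to 0.083 and 0.13, and other MAP kinase modules to 0.087 and 0.13. Kinases downstream of ERK moved from -0.66 to -0.43 and -0.38. Without 1 library the list medians ran from -0.76 to -0.18 (exchange factors), -1.19 to -0.39 (GTPase-activating proteins), -0.38 to -0.13 (adaptors), -0.49 to -0.30 (scaffolds), -0.42 to -0.14 (lipid modification), -0.24 to -0.00030 (RAS-related GTPases), -0.42 to 0.074 (effectors), -0.83 to -0.49 (kinases downstream of ERK) and -0.33 to -0.063 (other modules). Braf rests on 75 to 146 reads per library and Nras on 116 in sorafenib replicate 2, which limits their precision.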
